A study of Mus musculus with 16 samples.

Results

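The 8 genes described here, Snap25, Vamp2, Stx1a, Syt1, Cplx1, Cplx2, Syn1 and Syn2, encode the proteins that fuse synaptic vesicles with the presynaptic membrane and those that control this step. They were chosen by function, and they are 8 of 24035 genes with reads, with 36915 of 9697336 gene reads (0.381%) and 828 of 567624 isoforms. Full-length cDNA was sequenced on the PacBio platform (Iso-seq, in which 1 read spans a transcript) from 2 brain regions, cortex and striatum, of male mice at 3 months of age. R6/2 mice carry a transgene with exon 1 of human HTT and an expanded CAG repeat, driven by the human HTT promoter, and are a rapidly progressing model of Huntington's disease; the controls were non-transgenic (NT) mice. There were 4 samples, numbered 1 to 4, in each of 4 groups (NT cortex, R6/2 cortex, NT striatum, R6/2 striatum), and bulk tissue was used, so fewer cells of a type and less RNA per cell cannot be told apart.

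Vesicle fusion is driven by SNARE proteins. VAMP2 on the vesicle zippers together with syntaxin-1A and SNAP-25 on the plasma membrane, synaptotagmin-1 senses the calcium that triggers fusion, and complexins bind the assembled SNAREs and clamp or promote the last step. Synapsins tether vesicles to each other and to actin and so hold the reserve pool. Synapsin II is known in a long form and a short form that differ at the C terminus, and SNAP-25 in forms known as a and b that differ by the version of exon 5 that is spliced in.

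The sequences of these choices are shown because the isoform results below turn on them; they were read from the mm10 (GRCm38) genome on the + strand. In Snap25 (chr2:136713453-136782428) the isoform Snap25-202 takes the upstream exon 5 at chr2:136769743-136769860 and Snap25-201 takes the downstream exon 5 at chr2:136770057-136770174. Both versions are 118 bases long and coding, and they differ at 31 positions (73.7% identity), which are in capitals.

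Snap25-202: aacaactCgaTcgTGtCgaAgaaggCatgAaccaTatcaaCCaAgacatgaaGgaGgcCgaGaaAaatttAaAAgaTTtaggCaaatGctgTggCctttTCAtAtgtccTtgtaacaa
Snap25-201: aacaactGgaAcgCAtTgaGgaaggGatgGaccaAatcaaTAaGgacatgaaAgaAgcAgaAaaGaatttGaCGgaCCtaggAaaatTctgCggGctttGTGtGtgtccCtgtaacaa

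In Syn2 (chr6:115134902-115282006) the isoform Syn2-201 has 13 exons and splices from the end of exon 11 to exon 12, whereas Syn2-205 has 11 exons and reads on past that point for 835 bases to its own end. The last 30 shared bases (chr6:115274227-115274256) are in lower case and the 30 bases that follow are in capitals, from exon 12 (chr6:115278101-115278130) in Syn2-201 and from the extended exon 11 in Syn2-205.

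Syn2-201: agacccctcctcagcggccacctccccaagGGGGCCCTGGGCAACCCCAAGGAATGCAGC
Syn2-205: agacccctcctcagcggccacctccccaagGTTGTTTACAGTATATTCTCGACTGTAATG

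Read from the annotated start codon, the frame of Syn2-201 ran for 586 codons and that of Syn2-205 for 479, with 457 codons in common and the stop of Syn2-205 65 bases after the shared part of exon 11. The annotation nevertheless files Syn2-205 as a retained intron.

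**Figure D1:**
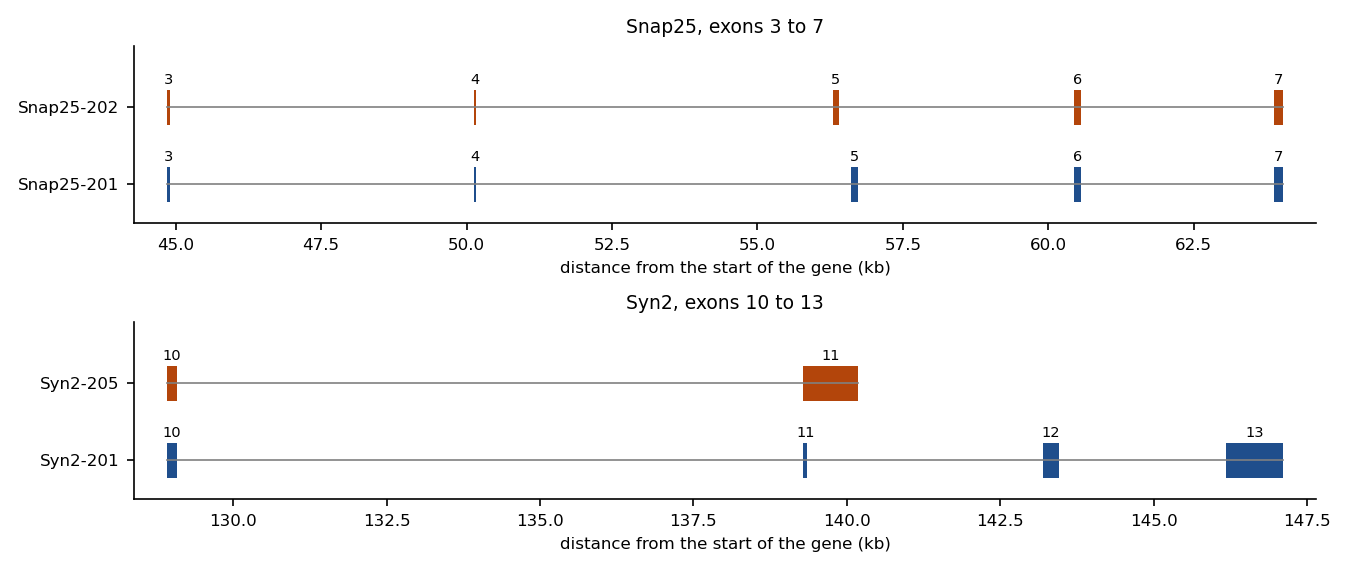
Exons 3 to 7 of 2 Snap25 isoforms (upper panel) and exons 10 to 13 of 2 Syn2 isoforms (lower panel), drawn to scale against the distance from the start of the gene in kb; boxes are exons and numbers count them within each isoform. The Snap25 isoforms use different exons 5, and Syn2-205 ends in a lengthened exon 11 while Syn2-201 goes on to exons 12 and 13.

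The libraries held 317050 to 1496196 reads in the striatum and 252885 to 808814 in the cortex. For 4 of the 8 striatal samples (numbers 1 and 2 of NT, and numbers 2 and 3 of R6/2) a pair of count tables was given and summed, and these samples, called samples with 2 sets, stood apart: the mean length of the isoforms behind their reads was 2125 to 2197 bases against 1589 to 1840 bases in the other 4 and 1821 to 2068 bases in the cortex. Each genotype had 2 such samples, so the number of sets was a term in every fit with striatal samples. The labelled regions carried their markers: the summed level of 10 genes of striatal projection neurons was 10758 to 14691 CPM (reads per 1e6, scaled between libraries) in NT striatum and 432 to 516 CPM in NT cortex. In R6/2 this sum was 2042 to 3481 CPM in striatum and 112 to 153 CPM in cortex. The p-values below measure the spread between these samples only, since the labels do not describe how the replicates were obtained.

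The comparison of R6/2 with NT mice asked whether the fusion genes changed with the transgene. None of the 7 genes that passed the filter on low counts reached an adjusted p of 0.05 in either region (edgeR quasi-likelihood test, Benjamini-Hochberg adjustment over all genes). The lowest edgeR p-values belonged to Cplx2, lower in R6/2 by a log2 fold change of -0.71 in cortex and -0.75 in striatum, to Syt1 at -0.61 in striatum and to Stx1a at -0.48 in cortex. Over all genes tested, 0.457% were called higher and 2.81% lower in R6/2 cortex, and 0.496% higher and 3.84% lower in R6/2 striatum.

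Without adjustment, 2 of 7 members had p under 0.05 in cortex, where 17.2% of all genes did, and 4 of 7 in striatum, where 17.7% did. Log2 fold changes were negative for 6 of 7 members in each region, with medians of -0.26 in cortex and -0.40 in striatum beside 0.01 and -0.00 over all genes tested. No member had CPM values that separated R6/2 from NT in either region, while 9.45% of genes in cortex and 5.91% in striatum did so in one direction or the other. Syn1 had too few reads to pass the filter on low counts in any of these comparisons.

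The comparison of striatum with cortex gave larger differences. In NT mice Vamp2 was called higher in striatum and Stx1a and Syn2 lower, and in R6/2 mice the same 3 genes were called in the same directions together with Syt1, which was lower. Among all genes, 15.8% were called higher and 17.6% lower in NT striatum, and 12.9% higher and 14.3% lower in R6/2 striatum. CPM values did not overlap between the regions for 3 members in NT mice (16.1% of all genes) and for 4 in R6/2 mice (21.1% of all genes).

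Whether the transgene acted differently in the 2 regions was tested as an interaction in the fit over all 16 samples, and no member passed (0.0271% of all genes were called with a positive and 0.0135% with a negative interaction). At an unadjusted p under 0.05 there was 1 member, Syt1, with a difference of -0.57 on the log2 scale (SE 0.26, edgeR, adjusted p = 0.85), beside 5.82% of all genes. DESeq2 also called no member. The edgeR fit, which also gave the region comparisons, took the 16 samples as independent. The paper took both regions from the left hemisphere of its mice, so samples of the 2 regions may share mice.

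**Figure D2:**
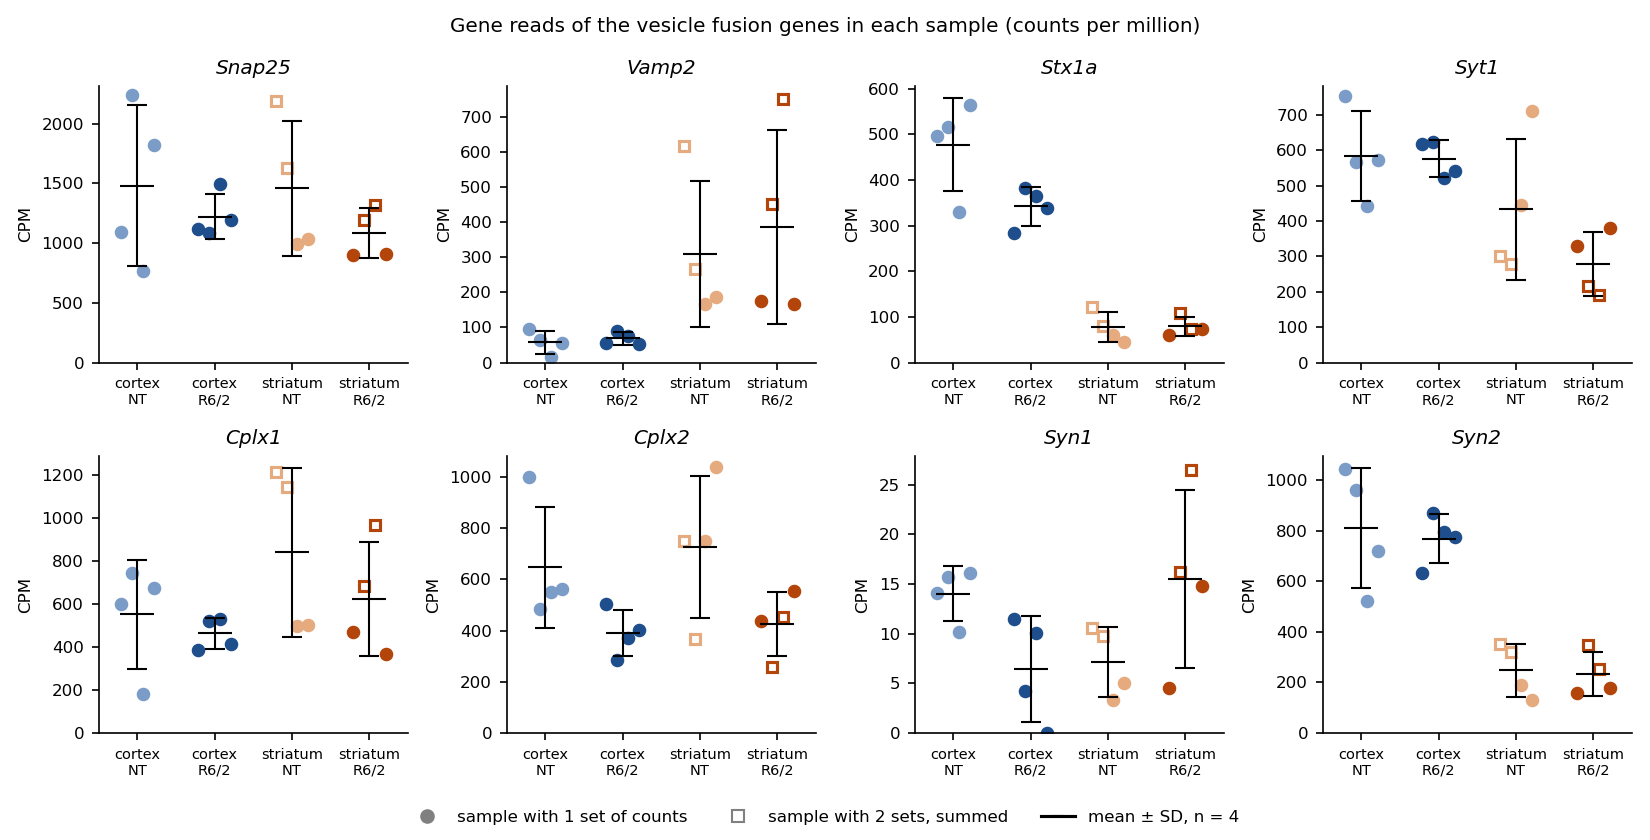
Level of each of the 8 genes in CPM (vertical axis, from 0) in every sample of the 4 groups, with the mean and SD (n = 4); open squares are striatal samples with 2 summed sets of counts. Stx1a and Syn2 sit higher in all cortical than in all striatal samples and Vamp2 lower, while the NT and R6/2 samples of a region overlap for each gene.

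**Figure D3:**
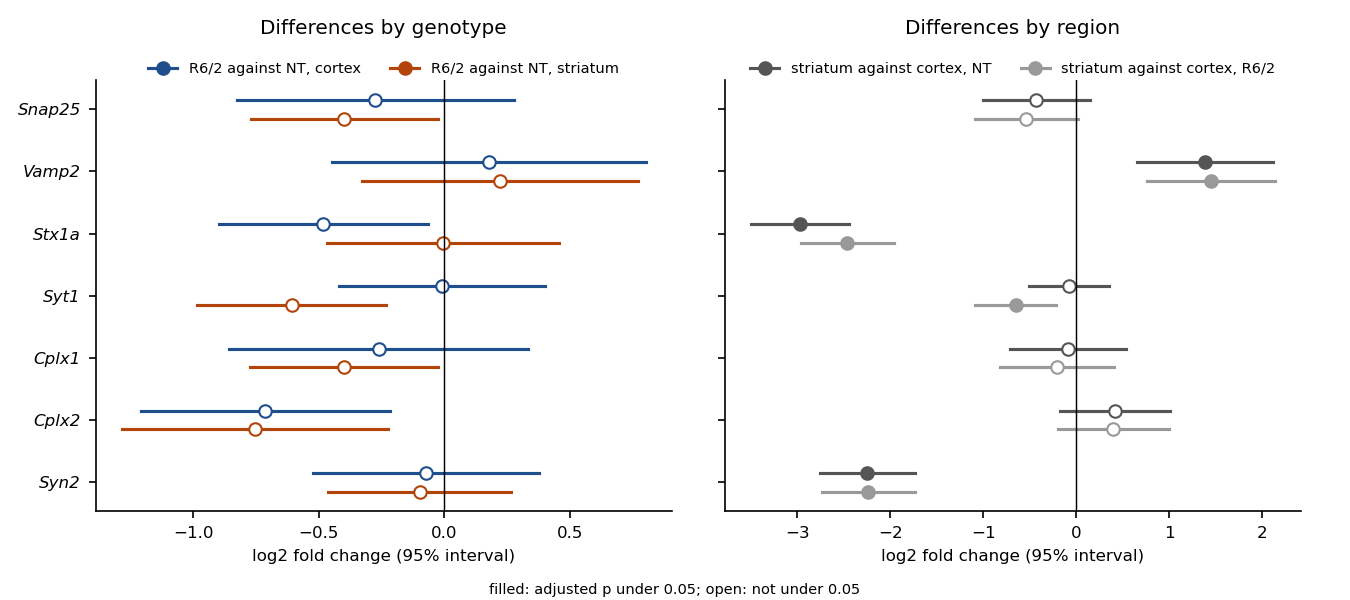
Log2 fold change with its 95% interval for the 7 genes that passed the filter on low counts, by genotype (left, R6/2 over NT) and by region (right, striatum over cortex); filled points have an adjusted p under 0.05. No point on the left is filled, whereas Vamp2, Stx1a and Syn2 are filled for both genotypes on the right and Syt1 for R6/2.

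Snap25 encodes the plasma membrane SNARE that contributes a pair of helices to the complex. Its CPM values in samples 1 to 4 were 1089, 2240, 763 and 1820 in NT cortex and 1114, 1082, 1492 and 1190 in R6/2 cortex. In striatum they were 2188, 1626, 990 and 1036 in NT and 901, 1196, 1317 and 907 in R6/2. NT samples were the highest and, in cortex, also the lowest, and all groups overlapped. By mean the order was NT cortex (1478 ± 674 CPM, SD, n = 4), NT striatum (1460 ± 565), R6/2 cortex (1219 ± 187) and R6/2 striatum (1080 ± 210), and each neighbouring pair lay within the larger of its SDs. In striatum the log2 fold change was -0.40 (SE 0.17, adjusted p = 0.25, edgeR), and it was -0.25 without NT striatum 1.

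Most Snap25 transcripts carried the downstream exon 5. Of complete reads, meaning those of known, NIC or NNC isoforms, Snap25-201 held 84.9 to 94.1% in every sample. NIC isoforms join known splice sites in a new way, and NNC isoforms use at least 1 splice site that is not annotated. The upstream exon 5 of Snap25-202 made up 12.3, 9.06, 8.33 and 10.1% in NT cortex and 9.90, 10.4, 10.3 and 11.8% in R6/2 cortex. In striatum its share was 5.67, 4.02, 5.13 and 5.16% in NT and 6.98, 5.61, 4.02 and 4.95% in R6/2. All 8 cortical samples lay above all 8 striatal ones, and the genotypes overlapped within each region. The difference between striatum and cortex was -4.97 percentage points in NT and -5.21 in R6/2 (p = 0.0286 in each, two-sided exact permutation test, the smallest p that 4 against 4 samples allow).

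That p was given by both Snap25 and both Syn2 isoforms, which made up 4 of the 11 isoforms tested in NT and 4 of 12 in R6/2. The shares of the 2 isoforms of a gene are nearly complements of each other, and after Benjamini-Hochberg adjustment none was below 0.05. Shares that did not overlap between the regions were seen for 5.83% of all isoforms in NT and 5.81% in R6/2. In the usage test across all genes (edgeR diffSpliceDGE), Snap25 was not called between regions (NT adjusted p = 1; R6/2 adjusted p = 0.855).

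Vamp2, on chr11:69088490-69092384, encodes the vesicle SNARE. Its levels were 95.9, 65.2, 15.3 and 54.5 CPM in NT cortex and 55.4, 89.1, 76.5 and 52.9 CPM in R6/2 cortex, from 3 to 53 reads a sample. In striatum they were 617, 268, 167 and 188 CPM in NT and 175, 453, 751 and 167 CPM in R6/2. Every striatal sample was above every cortical sample, and within the striatum the 4 samples with 2 sets were the highest. The log2 fold change of striatum over cortex was 1.38 in NT (SE 0.35, adjusted p = 0.00407, edgeR) and 1.45 in R6/2 (SE 0.33, adjusted p = 0.00231), and the genotypes differed by 0.18 in cortex and 0.22 in striatum with adjusted p of 0.824 and 0.742. The regional values refer to samples with 1 set. Without the term for sets they were 2.38 in NT (adjusted p = 0.0056, edgeR) and 2.50 in R6/2 (adjusted p = 0.00402).

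The regional call for Vamp2 depended on which reads were counted. The tables also list reads classed as genomic, which overlap a gene without matching its splice structure and were left out of all levels above. For Vamp2 these were 546 reads of a single 1-exon isoform of 2209 bases. They made up 54.0 to 85.7% of all its reads in NT cortex, 38.2 to 63.8% in R6/2 cortex, 5.82 to 29.2% in NT striatum and 3.27 to 30.6% in R6/2 striatum. With them added, the log2 fold change of striatum over cortex was 0.51 in NT (adjusted p = 0.17) and 0.89 in R6/2 (adjusted p = 0.0176). Of the complete reads, Vamp2-201, with 5 exons, held 93.5 to 100% in every sample, so isoform usage could not be tested.

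Stx1a, on chr5:135023482-135051100, encodes syntaxin-1A, the plasma membrane SNARE that docks vesicles with Munc18. Levels were 496, 517, 330 and 565 CPM in NT cortex and 283, 382, 364 and 339 CPM in R6/2 cortex. In striatum they were 122, 81.1, 60.8 and 45.7 CPM in NT and 60.8, 109, 73.1 and 73.7 CPM in R6/2. The cortex was above the striatum in every sample, and in cortex the lowest NT sample lay inside the R6/2 range while the other 3 lay above it.

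Stx1a had the largest regional difference of the 7 members. The log2 fold change of striatum over cortex was -2.97 in NT (SE 0.25, adjusted p = 1.96e-08, edgeR) and -2.46 in R6/2 (SE 0.24, adjusted p = 3.16e-07). R6/2 cortex differed from NT cortex by -0.48 (SE 0.20, adjusted p = 0.219) and R6/2 striatum from NT striatum by -0.01 (SE 0.21, adjusted p = 0.999). The interaction was 0.51 (adjusted p = 0.859, edgeR). By mean, R6/2 striatum (79.2 ± 20.8 CPM, SD, n = 4) and NT striatum (77.5 ± 33.2) did not differ beyond their spread, followed upwards by R6/2 cortex (342 ± 43.2) and NT cortex (477 ± 102).

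The 10-exon isoform Stx1a-201 held 91.6 to 100% of the gene's complete reads in every sample. In the usage test, Stx1a had an adjusted p of 0.847 between the genotypes in cortex (edgeR diffSpliceDGE).

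Syt1, on chr10:108497650-109010982 on the minus strand, encodes the calcium sensor of fast release. The levels were 753, 566, 442 and 571 CPM in NT cortex and 617, 624, 523 and 541 CPM in R6/2 cortex. In striatum they were 301, 277, 445 and 711 CPM in NT and 330, 215, 192 and 381 CPM in R6/2. All 4 R6/2 striatal samples were below all 8 cortical ones, and the NT striatal samples spanned both ranges, with the 2 samples of 1 set above the 2 samples of 2 sets.

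In striatum Syt1 differed between genotypes by a log2 fold change of -0.61 (SE 0.17, adjusted p = 0.0713, edgeR), and within the numbers of sets the difference of mean log2 CPM was -0.66 for samples with 1 set and -0.53 for samples with 2. In cortex the log2 fold change was -0.01 (SE 0.20, adjusted p = 0.991). Between regions it was -0.08 in NT (SE 0.21, adjusted p = 0.803) and -0.65 in R6/2 (SE 0.21, adjusted p = 0.0231). The R6/2 call was lost without ISM reads, the class of reads that match only part of a known isoform: the log2 fold change was then -0.11 (adjusted p = 0.795). It was also lost with no filter on low counts (-0.48), with the first set of counts only (-0.44), with samples of 1 set only (-0.69) and without any 1 of NT striatum 3, R6/2 striatum 1, R6/2 striatum 4, NT cortex 1, NT cortex 2 or R6/2 cortex 2. Leaving out single samples gave -0.73 to -0.40, and the fit without the term for sets gave -1.05 (adjusted p = 0.0278, edgeR). ISM reads were 56.9 to 60.5% of Syt1 reads in R6/2 cortex and 42.0 to 44.7% in R6/2 striatum. These shares did not overlap (p = 0.0286, two-sided exact permutation test, the smallest possible). The ISM share of Vamp2 likewise did not overlap between the regions of NT mice, with the same p. Its means were 13.3% in cortex, where Vamp2 had 3 to 34 reads a sample, and 1.90% in striatum. In each comparison 7 genes were tested after their values were seen, and none was below 0.05 after adjustment. How often the ISM shares of other genes separate the regions was not counted.

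Most complete Syt1 reads were not of the full coding transcript. Syt1-204, a 2-exon isoform of 3488 bases annotated as a retained intron, joins exon 1 to an exon 2 that runs on into intron 2 (exon 2 ends up as chr10:108899215-108902315 in place of chr10:108902215-108902315). It held 84.5 to 97.0% of complete reads in the cortex and 37.1 to 94.1% in the striatum. Isoforms with 11 exons, which are the coding Syt1-201 and a NIC isoform of 4718 bases, together held 0, 8.79, 3.03 and 9.73% in NT cortex and 6.02, 4.20, 9.09 and 10.3% in R6/2 cortex.

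In NT striatum the 11-exon isoforms held 45.5, 37.9, 16.4 and 4.41% of complete reads, and in R6/2 striatum 17.5, 44.3, 57.1 and 4.65%. The 4 highest values were those of the samples with 2 sets, which are also the libraries with the longest isoforms. Of the other 4 striatal samples, NT 3 and R6/2 1 were above every cortical sample and NT 4 and R6/2 4 were inside the cortical range. The part of library length in this difference was not tested. None of the 3 named Syt1 isoforms separated the regions or the genotypes, and Syt1 was not called in the usage test between genotypes or regions, with an adjusted p of 0.688 at the lowest, in R6/2 mice. That test left out ISM isoforms. With them counted, Syt1 was called between the regions of NT mice (adjusted p = 0.00856, edgeR diffSpliceDGE) and of R6/2 mice (adjusted p = 0.00208), and not between genotypes. Of 8262 genes tested in that setting, 144 were called in NT and 170 in R6/2.

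**Figure D4:**
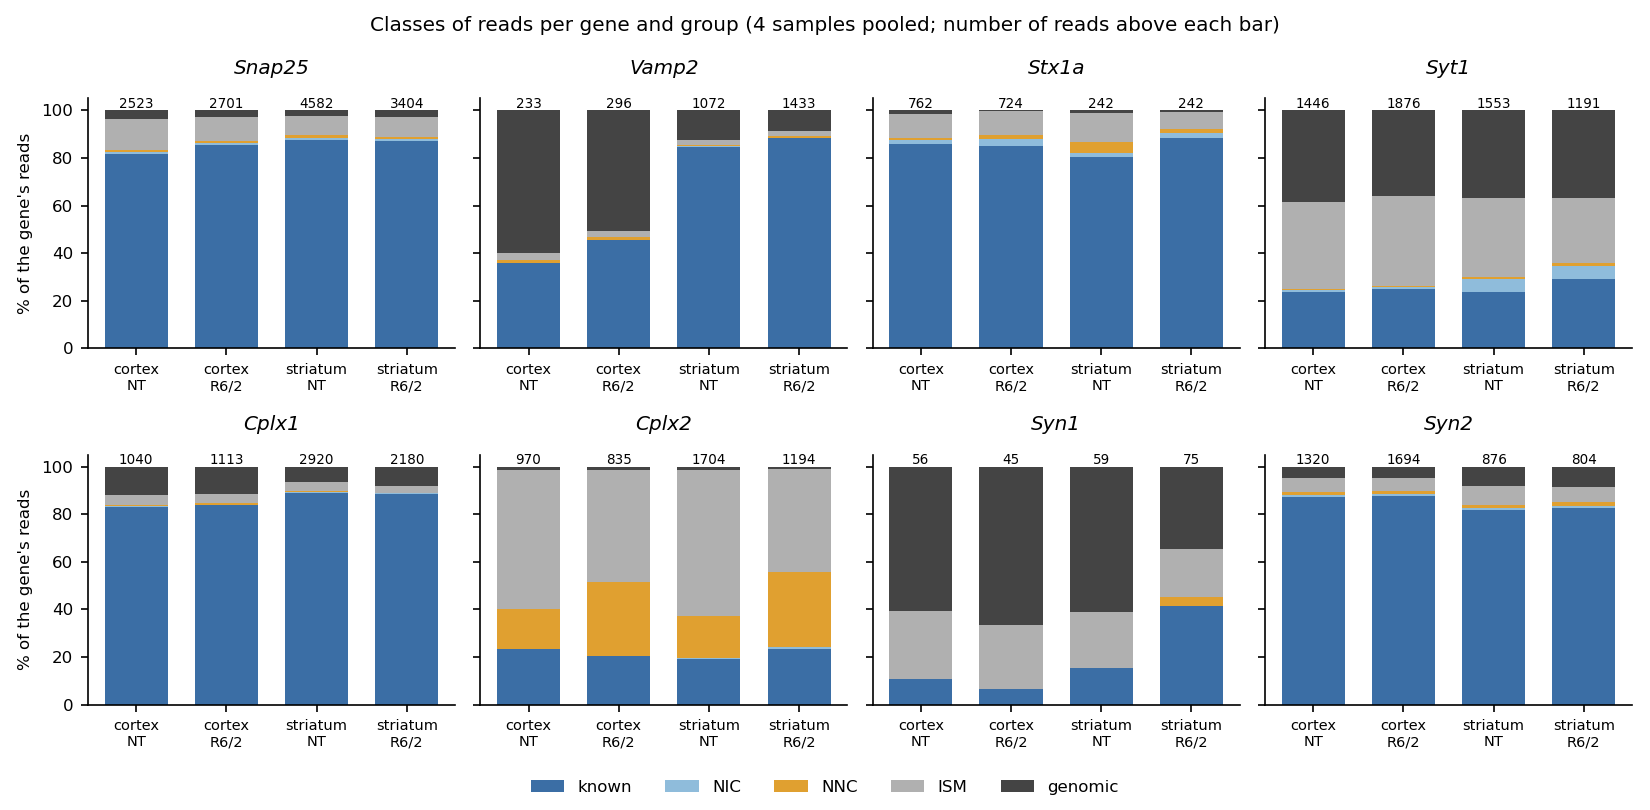
Reads of each gene by class (known, NIC, NNC, ISM and genomic) as a percentage of all its reads (vertical axis) in the 4 groups, 4 samples pooled, with the number of reads above each bar. Genomic reads take 60.1% of the Vamp2 bar in NT and 50.7% in R6/2 cortex against 12.5% and 8.51% in striatum, ISM reads are the largest class of Cplx2 in all groups, and Syt1 has large ISM and genomic classes in all groups.

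Cplx1 and Cplx2 encode the complexins, small soluble proteins that bind the assembled SNARE bundle. For Cplx1 (chr5:108518554-108550024, minus strand) the levels were 601, 744, 183 and 676 CPM in NT cortex and 388, 520, 530 and 413 CPM in R6/2 cortex. In striatum they were 1213, 1145, 497 and 503 CPM in NT and 468, 684, 969 and 369 CPM in R6/2. The 4 striatal samples with 2 sets had 684 to 1213 CPM and the 4 with 1 set 369 to 503 CPM, so within this region its levels separated the numbers of sets and not the genotypes. The log2 fold change of R6/2 over NT was -0.26 in cortex (SE 0.28, adjusted p = 0.694, edgeR) and -0.40 in striatum (SE 0.17, adjusted p = 0.245), where it was -0.25 without R6/2 striatum 2. In cortex it was -0.09 without NT cortex 2 and -0.54 without NT cortex 3, the highest and the lowest NT sample. Cplx1-201, with 4 exons, held 96.8 to 100% of complete reads in every sample.

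Cplx2, on chr13:54371349-54383917, had the largest log2 fold change between genotypes among the members in both regions. It was at 998, 483, 549 and 561 CPM in NT cortex and at 504, 284, 373 and 401 CPM in R6/2 cortex. In striatum the levels were 749, 366, 750 and 1041 CPM in NT and 439, 258, 453 and 555 CPM in R6/2. In cortex 3 of the 4 R6/2 samples were below all NT samples, whereas in striatum only 1 was and the other 3 lay inside the NT range. The log2 fold change was -0.71 in cortex (SE 0.24, adjusted p = 0.119, edgeR) and -0.75 in striatum (SE 0.25, adjusted p = 0.115), and within the striatum the difference of mean log2 CPM was -0.84 for samples with 1 set and -0.64 for samples with 2. Without NT cortex 1, the highest sample, the cortical value was -0.43 (adjusted p = 0.205). In striatum Cplx2 passed the threshold without NT striatum 2 (-0.93, adjusted p = 0.028) and with no filter on low counts (-0.66, adjusted p = 0.0266).

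The classes of Cplx2 reads differed between the genotypes to different degrees. ISM reads were its largest class in every group: in cortex they stood at 513, 308, 325 and 369 CPM in NT against 269, 159, 153 and 168 CPM in R6/2. In striatum they stood at 260, 292, 522 and 879 CPM in NT against 210, 117, 147 and 319 CPM in R6/2. The genotypes did not overlap in cortex and overlapped in striatum. How often the ISM levels of other genes, or of their single ISM isoforms, separate the genotypes was not counted. Of these reads, 1456 belonged to a single 1-exon ISM isoform of 3744 bases, with 144 to 237 CPM in NT cortex against 46.7 to 107 CPM in R6/2 cortex, and 185 to 493 CPM in NT striatum against 94.0 to 182 CPM in R6/2 striatum.

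The genotype means of all ISM reads were 379 and 187 CPM in cortex and 488 and 198 CPM in striatum. These Cplx2 levels by class were picked after their values were seen and were given no test. Without ISM reads the log2 fold change of the gene was -0.41 in cortex (adjusted p = 0.608, edgeR) and -0.11 in striatum (adjusted p = 0.951). The ISM share of Cplx2 reads averaged 60.1% in NT and 48.1% in R6/2 cortex (p = 0.0857, two-sided exact permutation test), and 67.1% and 45.8% in striatum (p = 0.143). Over whole libraries the ISM share was 17.1 to 20.9% in NT and 17.1 to 19.7% in R6/2 cortex, and 12.3 to 20.1% in NT and 11.9 to 18.1% in R6/2 striatum.

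The complete reads of Cplx2 were divided between 2 isoforms whose balance differed between the genotypes in cortex. Cplx2-201, the annotated 4-exon isoform of 4928 bases, gave 57.0, 56.4, 61.4 and 58.9% of complete reads in NT cortex and 40.7, 40.7, 42.1 and 33.0% in R6/2 cortex. A 5-exon NNC isoform of 1461 bases gave 36.6, 39.7, 38.6 and 37.9% in NT cortex and 52.0, 57.6, 53.9 and 63.9% in R6/2 cortex. All R6/2 samples lay on the other side of all NT samples for both isoforms. The part of isoform length in this balance was not tested.

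The NNC share differed by 18.7 percentage points and that of Cplx2-201 by -19.3 in cortex (p = 0.0286 for each, two-sided exact permutation test, the smallest possible; 11 isoforms tested, none below 0.05 after adjustment). These 2 were the only isoforms of the 11 whose shares separated the genotypes there, where 5.1% of all isoforms did. In CPM, Cplx2-201 averaged 156 ± 81.6 in NT and 78.9 ± 20.4 in R6/2 cortex, and the NNC isoform 102 ± 51.2 and 115 ± 31.9 (SD, n = 4). The usage test, which models the counts, did not call Cplx2 in cortex (adjusted p = 1, edgeR diffSpliceDGE).

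In striatum the NNC isoform gave 42.7, 51.6, 40.3 and 31.2% in NT and 49.0, 55.7, 53.1 and 49.0% in R6/2, and the 2 genotypes overlapped by 1 NT sample (p = 0.0857, exact permutation test; 0.0556 when labels were permuted within numbers of sets, the smallest that allows). Complete Cplx2 reads ranged from 32 to 372 a sample.

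Syn1, on chrX:20860511-20921004, encodes synapsin I, an abundant vesicle phosphoprotein, but had 0 to 25 reads a sample and 109 in all. Its levels were 14.1, 15.7, 10.2 and 16.1 CPM in NT cortex, 11.5, 4.24, 10.1 and 0 in R6/2 cortex, 10.5, 9.73, 3.28 and 5.08 in NT striatum and 4.56, 16.2, 26.5 and 14.7 in R6/2 striatum. All groups overlapped, and Syn1 was not tested because it did not pass the filter on low counts. With no filter, with genomic reads added, or in striatum without NT 3, NT 4 or R6/2 1, it entered the edgeR test and was not called. Of its complete reads, 40 were of Syn1-202 and 9 of Syn1-201, both with 13 exons.

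Syn2 encodes synapsin II and was, with Stx1a, the member that most separated the regions. The levels were 1044, 959, 524 and 718 CPM in NT cortex and 634, 868, 794 and 776 CPM in R6/2 cortex. In striatum they were 351, 319, 190 and 132 CPM in NT and 160, 348, 251 and 177 CPM in R6/2. Every cortical sample was above every striatal one, and the genotypes overlapped. The log2 fold change of striatum over cortex was -2.25 in NT (SE 0.25, adjusted p = 5.23e-07, edgeR) and -2.24 in R6/2 (SE 0.24, adjusted p = 8.98e-07), while R6/2 and NT differed by -0.07 in cortex (adjusted p = 0.909) and -0.10 in striatum (adjusted p = 0.847).

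The long form of Syn2 held a larger share in striatum than in cortex. Syn2-201 gave 3.74, 7.64, 6.45 and 11.6% of complete reads in NT cortex and 12.6, 12.6, 10.6 and 17.6% in R6/2 cortex. In striatum it gave 24.4, 27.5, 24.8 and 15.8% in NT and 29.9, 34.0, 30.2 and 29.7% in R6/2. By mean the 4 groups rose in the order NT cortex (7.37 ± 3.28%, SD, n = 4), R6/2 cortex (13.4 ± 2.99%), NT striatum (23.1 ± 5.07%) and R6/2 striatum (30.9 ± 2.05%). Syn2-205, the form that ends after exon 11, held most of the rest, with means of 89.8%, 84.6%, 74.9% and 66.2% in the same order.

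Between regions the Syn2-201 shares did not overlap in NT mice (15.7 percentage points, p = 0.0286, two-sided exact permutation test, the smallest possible), and in R6/2 mice the difference was 17.6 points with the same p. In the usage test Syn2 was the only member called between the regions of NT mice (adjusted p = 0.0129, edgeR diffSpliceDGE; 6 members testable), where 0.372% of all genes were called. In R6/2 mice, a comparison added after the data were seen, it was not called (adjusted p = 0.166, edgeR; 0.496% of all genes), although a gene-level F test called it (adjusted p = 0.0451). The NT call was lost without the library labelled NT striatum 3 (adjusted p = 0.333) or NT cortex 1 (adjusted p = 0.141), and with only the samples that had 1 set of counts (adjusted p = 0.0827).

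The genotypes also differed in the Syn2-201 share in striatum, where all R6/2 samples were above all NT samples. The difference was 7.84 percentage points (p = 0.0286, two-sided exact permutation test, the smallest possible; p = 0.0556 within numbers of sets, again the smallest possible). With Syn2-205 it was 1 of 2 isoforms of the 12 tested whose shares separated the genotypes, where 5.75% of all isoforms did, and none was below 0.05 after adjustment. In cortex the difference was 5.99 points, with the highest NT sample inside the R6/2 range (p = 0.0571, exact permutation test). The usage test called no member between genotypes in cortex (0.36% of all genes called) or striatum (0.451%); Syn2 had an adjusted p of 0.701 in cortex and 1 in striatum (edgeR diffSpliceDGE). At an unadjusted p under 0.05 there were 2 members in cortex (Stx1a and Syn2) and 0 in striatum, beside 5.56% and 6.74% of all genes.

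**Figure D5:**
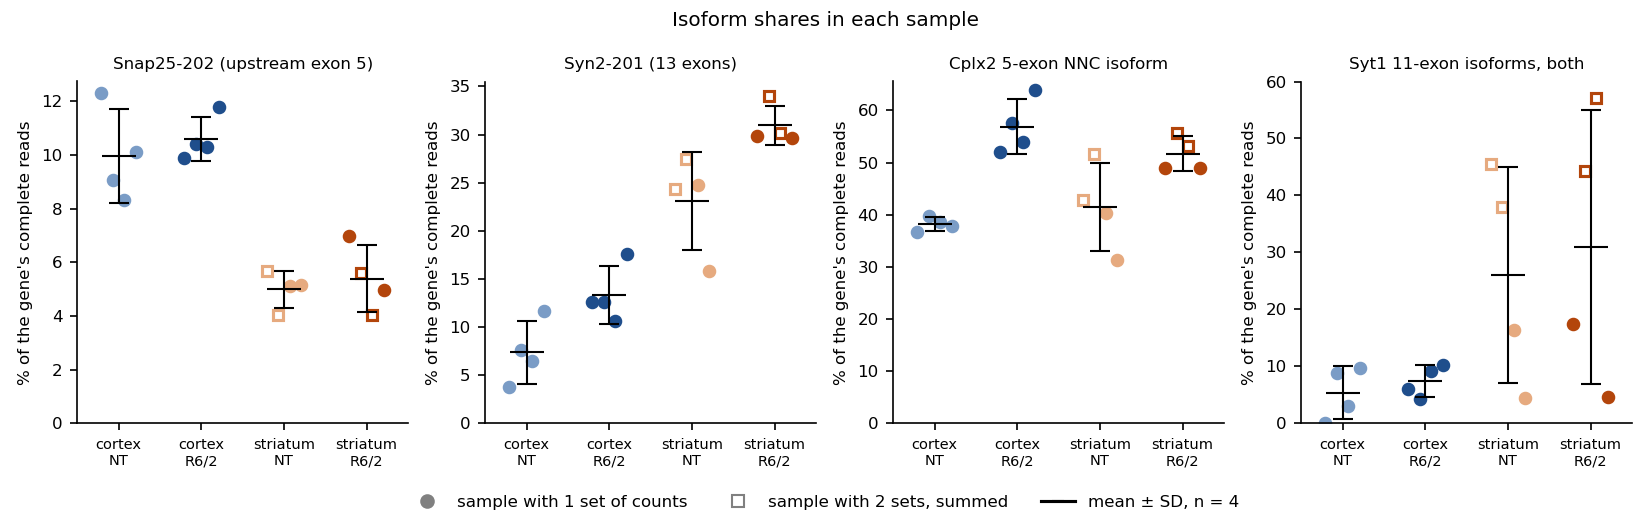
Share of complete reads (vertical axis, %) held by Snap25-202, Syn2-201, the 5-exon NNC isoform of Cplx2 and the 11-exon isoforms of Syt1 in each sample, with the mean and SD (n = 4); open squares are samples with 2 sets of counts. Snap25-202 is lower and Syn2-201 higher in every striatal sample than in the cortical samples of the same genotype, the Cplx2 NNC share separates the genotypes in cortex, and the 4 highest Syt1 values are those of samples with 2 sets.

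By mean level, Vamp2 ran from NT cortex (57.7 ± 33.3 CPM, SD, n = 4) over R6/2 cortex (68.5 ± 17.4) and NT striatum (310 ± 209) to R6/2 striatum (387 ± 277), and Syn2 from R6/2 striatum (234 ± 85.8) over NT striatum (248 ± 104) and R6/2 cortex (768 ± 97.7) to NT cortex (811 ± 236). In both orders only the step between the regions was larger than the SDs of its neighbours. Syt1 ran from R6/2 striatum (279 ± 90.6) over NT striatum (434 ± 199) and R6/2 cortex (576 ± 51.8) to NT cortex (583 ± 128), Cplx1 from R6/2 cortex (463 ± 72.6) over NT cortex (551 ± 252) and R6/2 striatum (622 ± 266) to NT striatum (840 ± 393), and Cplx2 from R6/2 cortex (391 ± 90.7) over R6/2 striatum (426 ± 123) and NT cortex (648 ± 236) to NT striatum (727 ± 277). For these 3 genes each neighbouring pair lay within the larger of its SDs.

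The members did not vary as one group over the 16 samples. Pearson's r of log2 CPM was 0.97 for Stx1a and Syn2, 0.77 for Snap25 and Cplx1 and 0.74 for Vamp2 and Cplx1, but -0.71 for Vamp2 and Syt1 and -0.70 for Vamp2 and Stx1a. These are descriptions, since all samples share the 2 regions and the split by sets. In the striatal fit, samples with 2 sets differed from those with 1 by a log2 fold of 1.40 for Vamp2 (adjusted p = 0.00125, edgeR), 0.94 for Cplx1 (adjusted p = 0.00133), 0.75 for Syn2, 0.52 for Snap25 and 0.47 for Stx1a, and by -1.06 for Syt1 (adjusted p = 0.000513) and -0.75 for Cplx2.

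Among 4714 genes with at least 20 reads a sample on average, those most like the mean profile of the members were Ogfod2 (r = 0.89), Shisa4 (0.85), Gabbr1 (0.85), Ap3b2 (0.81) and Tuba4a (0.80), over 16 samples. The mean gave each member equal weight, also Syn1 with 0 to 25 reads a sample and members that varied in opposite directions. These r values are the highest of the 4714 and are descriptions only.

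Of 66 other genes of vesicle priming, release and filling, 45 could be tested in cortex, where 0 were called higher and 5 lower in R6/2 (0.457% and 2.81% of all genes tested), with a median log2 fold change of -0.24 beside 0.01 over all genes. The largest decreases were in Cadps2, a priming factor of dense-core vesicles (-1.51, adjusted p = 0.00805, edgeR), Doc2a, a calcium sensor of spontaneous and asynchronous release (-1.41, adjusted p = 0.00235), and Rph3a, which encodes the Rab3 partner rabphilin (-1.25, adjusted p = 0.000734). In striatum 0 of 48 were called higher and 4 lower (0.496% and 3.84% of all genes), with a median of -0.17 beside -0.00 over all genes. The decreases were led by Syt12 (-1.28, adjusted p = 0.012), the priming gene Unc13c (-1.11, adjusted p = 0.00376) and Syt6 (-0.90, adjusted p = 0.0278).

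Between regions, 7 of 51 genes of this list were called higher and 21 lower in NT striatum (15.8% and 17.6% of all genes), with a median log2 fold change of -0.48 beside -0.11 over all genes. The largest increases were in Unc13c (2.66), Synpr, which encodes the vesicle protein synaptoporin (1.45), and Syt6 (1.41), and the largest decreases in Cadps2 (-3.74), Slc17a6, which encodes a vesicular glutamate transporter (-3.73), and Doc2a (-2.99). In R6/2 striatum, where 12.9% of all genes were called higher and 14.3% lower, 9 of the 51 were called higher, led by Unc13c (2.29), the vesicle SNARE gene Vamp1 (1.81) and Prrt2 (1.42), and 20 lower, led by Slc17a6 (-3.97), Cadps2 (-3.15) and the glutamate transporter gene Slc17a7 (-3.02), with a median of -0.44 beside -0.10 over all genes. No gene of the list was called for the interaction.

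Summed markers of cell types differed with region or genotype for some lists, and their part in the results above was not tested. The sum of 10 genes of all neurons was 8755 to 11389 CPM in NT and 7513 to 9077 CPM in R6/2 cortex, against 4856 to 8293 CPM in NT and 4864 to 6041 CPM in R6/2 striatum. The sum of 10 genes of cortical excitatory neurons was 483 to 685 CPM in NT and 246 to 329 CPM in R6/2 cortex, against 174 to 200 CPM in NT and 138 to 177 CPM in R6/2 striatum, where 1 of the 10 was at 0 in all R6/2 samples.

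The 8 interneuron genes summed to 1286 to 1994 CPM in NT and 844 to 1060 CPM in R6/2 cortex, and to 1121 to 1402 CPM and 763 to 1008 CPM in striatum. Oligodendrocyte genes summed to 4220 to 8226 CPM in NT and 3986 to 6308 CPM in R6/2 cortex, and to 14700 to 33271 CPM and 14212 to 21087 CPM in striatum. Astrocyte genes summed to 2654 to 4015 CPM in NT and 1666 to 2065 CPM in R6/2 cortex, and to 2601 to 4251 CPM and 1946 to 2186 CPM in striatum. Microglia genes overlapped between the genotypes, at 476 to 646 CPM and 382 to 661 CPM in cortex and 562 to 828 CPM and 595 to 878 CPM in striatum; each of these last 3 lists has 10 genes.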

How the data were processed

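RNA of cortex and striatum, treated with a 5' exonuclease that removes uncapped RNA, was sequenced as Iso-seq libraries of 4 samples per group. The authors aligned the reads to mm10 (minimap2 2.17-r941 in the submitters' processing notes) and deposited unfiltered TALON counts, which are raw read counts per isoform for each library, with a class for each isoform. The libraries were amplified by PCR without molecular identifiers, so reads are not independent molecules and the precision set by 252885 to 1496196 reads a sample covers counting error only. Counts of 20 files were summed to 16 samples: the labels say that the raw data of 4 striatal samples hold 2 replicates, and their 2 files were taken as sets of 1 sample.

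Gene counts were summed over known, NIC, NNC and ISM isoforms and tested with the edgeR 4.0.16 quasi-likelihood test in R 4.3.3 (TMM normalization, filterByExpr, Benjamini-Hochberg adjustment over all genes, threshold 0.05), with the number of sets as a term wherever striatal samples entered; region estimates thus refer to samples with 1 set. CPM are TMM-scaled. Isoform usage was tested with diffSpliceDGE (Simes p, isoforms of at least 10 reads), and shares of complete reads with two-sided exact permutation tests of 4 against 4 samples. The gene test, the usage test and the permutation test were tried on simulated data. Alternatives were DESeq2 1.42.0, upper-quartile normalization, other filters and classes, other handling of the sets, the replicate block and leaving out each sample.

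All 8 genes were named, with isoforms of at least 5% of complete reads in a group, at most 4 a gene; from the list of related genes the 3 largest called changes in each direction; and the 5 genes most like the mean profile. The members, lists and tests were chosen with earlier results of these data known. Whether same-numbered samples deviated together was checked, and no comparison met the rule that every pair's correlation exceed 0.1.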

Additional observations from a re-analysis of the deposited data

Results flagged for a closer look

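In 82 groups of 4 values, levels and isoform shares of the 8 genes were examined for a sample far from the other 3, and 5 were found; chance gives about 1 in 20. Cplx2 was at 998 CPM in NT cortex 1, and the nearest sample was at 561 CPM. The share of Vamp2-201 was 97.3% in NT striatum 4, with the nearest sample at 98.9%. The share of Cplx2-201 was 33.0% in R6/2 cortex 4, with the nearest at 40.7%. The share of Syn2-205 was 84.2% in NT striatum 4, which had 19 complete Syn2 reads, with the nearest at 73.1%. The share of Syn2-201 was 34.0% in R6/2 striatum 2, with the nearest at 30.2%.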

How the results depend on the processing

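Each result was recomputed under the alternatives, and of the values of single genes and isoforms with p under 0.05, 407 recomputed values kept their direction and side of the threshold, 3 passed it newly, 12 fell short of it and 0 changed sign. The number of members called between genotypes was 0 throughout except that Cplx2 was called, giving 1, in cortex with the replicate block (-0.69, adjusted p = 0.0356), and in striatum without a filter on low counts (-0.66, adjusted p = 0.0266) or without NT striatum 2 (-0.93, adjusted p = 0.028), so that leaving out samples gave 0 to 1 there. Without NT cortex 1, Cplx2 in cortex was at -0.43 (adjusted p = 0.205). Called usage between regions in NT mice (1 member) went to 2 with ISM isoforms (Syt1 and Syn2), to 0 with the replicate block, to 0 with samples of 1 set only and to 0 to 1 when a sample was left out. In R6/2 mice it went from 0 to 1 with the F test (Syn2, adjusted p = 0.0451) and to 1 with ISM isoforms (Syt1, adjusted p = 0.00208). The causes were not tested.

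The call for Syt1 between the regions of R6/2 mice (-0.65) fell short without a filter (-0.48), without ISM (-0.11), with the replicate block (-0.57), with the first set only (-0.44), with samples of 1 set only (-0.69, chosen after seeing the data) and without each of 6 single samples; leaving out samples gave -0.73 to -0.40. Vamp2 in NT fell short with the genomic class (0.51). Of 21 log2 fold changes with p of 0.05 or more, 16 changed sign under at least 1 alternative, and 2 passed the threshold: Snap25 between regions of NT mice without NT cortex 3 (-0.65, adjusted p = 0.0454) and Cplx2 without NT cortex 1 (0.92, adjusted p = 0.0125). Of 34 share differences of this kind, 12 changed sign.

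Over all genes, calls in cortex went from 200 to 95 without ISM isoforms and to 95 to 305 when a sample was left out. In striatum they went from 332 to 606 without a filter, 185 with the replicate block, 181 with the first set only, 39 without the term for sets and 143 to 391 when a sample was left out. Between regions they went from 2467 to 1101 in NT and from 2014 to 840 in R6/2 without the term for sets. The replicate block changed no other call of a member. The correlations of same-numbered samples 1 to 4 were 0.17, -0.05, -0.07 and 0.13 between genotypes in cortex and -0.57, 0.46, -0.38 and 0.62 in striatum. Between regions they were -0.23, 0.22, 0.12 and -0.17 in NT and 0.40, 0.19, 0.38 and -0.04 in R6/2. In R6/2, 3 of the 4 numbers correlated best with their own number, a hint from the data and not from the design, and in no comparison did all 4 do so. The sample numbers are not known to pair the samples. Read counts were lowest for Syn1 and, among the other members, for Vamp2 in cortex. For Syn1 the reads classed as genomic (126) outnumbered the gene reads (109).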
